A study of Bos taurus with 92 samples.

Results

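Cattle blastocysts made by nuclear transfer (NT) were compared with the somatic cells named in the labels as NT donor cells. The comparison rests on 15 single NT embryos and on both donor cell specimens, labelled 8 and 9, which are 17 of the 46 specimens and 34 of the 92 arrays of the series. Members were chosen by the label type, NT for the embryos and donor cells for the only specimens that were not embryos, and no measured value entered the choice. The series also holds 14 blastocysts from artificial insemination (AI) and 15 from fertilisation in vitro (IVF). RNA of each specimen had been amplified over 3 rounds and hybridised with a reference RNA, amplified over 2 rounds, on a custom 2-colour cDNA microarray. Each specimen was hybridised on 2 arrays, with the dyes Cy5 and Cy3 exchanged. The labels of 8 NT embryos begin with 2_ and those of 7 with 3_, without explanation. They give no tissue, animal, breed, age or culture for the donor cells, and do not say which cells gave rise to which embryo. Whether the specimens of a group are biologically independent is therefore unknown, and p-values measure only the spread between specimens. For each gene this spread was pooled over all 46 specimens, most of them embryos. Standard errors and p-values against donor cells therefore assume that donor cells vary like embryos.

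In nuclear transfer the nucleus of a somatic cell is placed into an oocyte whose own chromosomes have been removed. The oocyte cytoplasm has to shut down the programme of the somatic nucleus and start that of the embryo, a process called reprogramming, which the series title names as its subject. Most cells of a cattle blastocyst belong to the trophectoderm, a sealed epithelium that pumps fluid into the blastocoel and later forms the placenta, and a smaller inner cell mass forms the fetus. Cultured donor cells are often fibroblasts, which secrete collagen and other matrix and carry an actin skeleton anchored through integrins.

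Values are log2 ratios of specimen over reference, with the median of each array set to 0. A value of a gene in a specimen is called its level, and NT minus donor cells its difference, given ± the standard error of the model. The labels do not give the direction of the deposited ratios, which was read as Cy5 over Cy3. This reading is likely, because it places fibroblast genes higher in donor cells and epithelial genes higher in embryos. The direction of those gene groups is therefore no independent result, and under the opposite reading every difference turns in sign while sizes and tests stay. In bulk RNA, fewer cells of a type and less RNA per cell cannot be told apart.

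The arrays of a specimen correlated over probes with r from 0.638 to 0.703 in NT embryos but only 0.248 and 0.325 in the donor cells. Averaged over both dyes, NT embryos correlated with each other with r from 0.700 to 0.835, the donor cell specimens with r of 0.721, and embryos with donor cells with r from 0.102 to 0.168. Within a dye orientation the donor cell arrays correlated with r of 0.718 in Cy5 and 0.814 in Cy3, so that they were more alike by dye than by specimen. The donor cell specimens differed from each other by a median of 0.31 per gene and by more than 1 in 490 of 4398 genes. With 2 specimens in that group, 1 of them can decide a call, and this is stated where it happened. No hybridisation batch is given, so that batch and group cannot be told apart.

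Markers were checked first. Of 24 fibroblast markers, 10 were measured, and 6 of them were higher in the donor cells, namely COL1A2, COL3A1, DCN, SPARC, VIM and TAGLN. The surface glycoprotein THY1 was higher in NT embryos, and FN1, FBLN1 and COL6A1 did not pass. TAGLN, named as a marker, was lost as deposited (adjusted p = 0.0725). The mean level over the 10 genes was 0.93 and 0.99 in donor cell specimens 8 and 9 and -2.06 to -1.51 in NT embryos, without overlap. Of 17 trophectoderm markers, 14 were measured, 7 of which were higher in NT embryos and 1 in donor cells. Over all genes tested 19.9% were higher in NT embryos and 15.4% in donor cells. Their mean level was -0.079 and -0.028 in the donor cells and 0.82 to 1.69 in NT embryos. CDX2 and IFNT were not analysed here, nor were POU5F1, NANOG and SOX2 of the inner cell mass and GATA4, SOX17 and TTR of the primitive endoderm. Of the 10 immune and blood markers measured CORO1A passed, higher in NT embryos, and of 9 endothelial markers PECAM1 was higher and ERG and KDR lower. Of 3 granulosa and cumulus markers, TNFAIP6 and CD44, also present in fibroblasts, were lower in NT embryos. PECAM1 was lost without specimen 8 (adjusted p = 0.133) and without specimen 9 (adjusted p = 0.324), and KDR without specimen 8 (adjusted p = 0.0544), and both were lost as deposited and turned in sign with 1 probe per gene. Whether other cell types had a part in any result was not tested.

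Of 4398 genes tested, 1556 (35.4%) differed between NT embryos and donor cells (limma, adjusted p below 0.05), 877 (19.9%) higher and 679 (15.4%) lower in NT embryos. These shares over all genes are the background for the list counts below. A difference of at least 2-fold was reached by 609 of the higher and 519 of the lower genes, and of at least 16-fold by 21 and 35. For 1376 genes (31.3%) the 15 NT embryos did not overlap the donor cells, lying above them in 771 and below in 605. Without donor cell specimen 8 the number of called genes was 1022, and without specimen 9 it was 1018. The balance of directions depended on scaling and dye, with 830 higher and 374 lower when array medians were left as deposited. With the specimen in Cy5 alone 581 were higher and 808 lower, and with the specimen in Cy3 alone 1061 and 507. List counts given below for other settings, also those without a donor cell specimen, are to be read beside these changes over all genes. The median difference over all genes was 0.033, and 0.25 as deposited. Of the 1556 genes, 1542 had the same sign in both dye orientations, and 852 (19.4% of all) were called the same way in each orientation on its own.

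**Figure D1:**
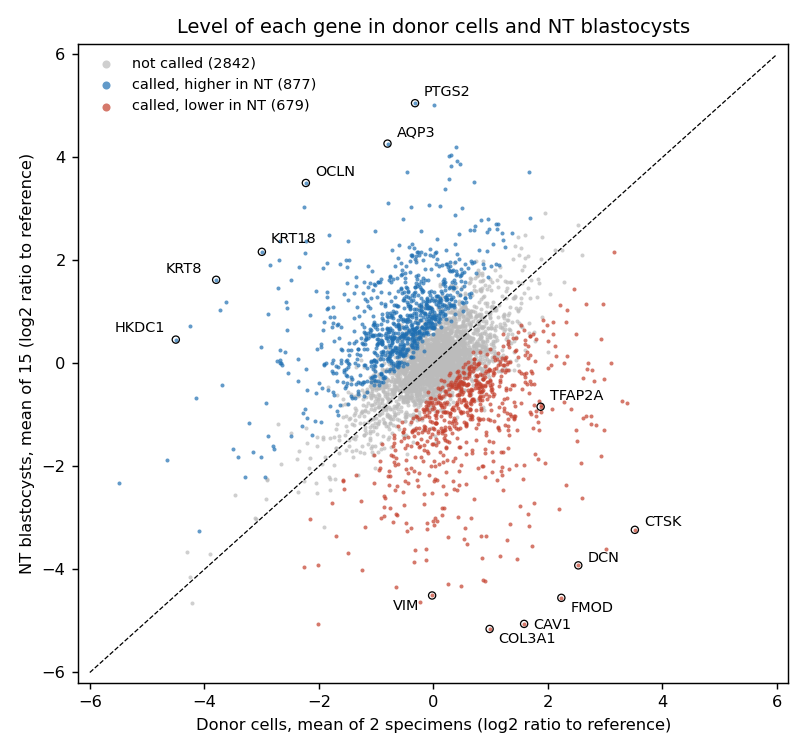
Mean level of each of 4398 genes in the donor cells (x axis, 2 specimens) against its mean level in NT blastocysts (y axis, 15 embryos), both as log2 ratios to the reference, with genes called higher in NT in blue (877), lower in red (679) and the rest in grey, and equality dashed. Matrix and caveolar genes such as FMOD, DCN, COL3A1 and CAV1 lie far below the line, and keratin, junction and channel genes such as KRT8, KRT18, OCLN and AQP3 far above it.

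The 15 largest falls and 15 largest rises were taken from called genes without overlap, so that their lack of overlap was a condition of choice. Several of the largest falls from donor cells to NT embryos were in genes of the extracellular matrix and its fibre-binding proteoglycans. Fibromodulin, FMOD, which binds collagen fibrils, had a level of 2.43 and 2.04 in donor cell specimens 8 and 9 and ran from -5.10 to -3.57 in the NT embryos, with a median of -4.60. Its difference was -6.79 ± 0.35 (adjusted p = 2.78e-21), a 110-fold lower ratio. Decorin, DCN, a proteoglycan of the same family, stood at 2.49 and 2.57 in donor cell specimens 8 and 9 and ran from -4.21 to -3.34 in the NT embryos, with a median of -3.94, a difference of -6.45 ± 0.30 (adjusted p = 9.83e-23). Every NT embryo lay more than 5 log2 units below both donor cell specimens for these genes.

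Fibrillar collagen genes were lower too. COL3A1 had levels of 0.93 and 1.04 in the donor cells against -5.63 to -4.55 (median -5.16) in the NT embryos, and a difference of -6.14 ± 0.24 (adjusted p = 9.89e-26). COL1A2 had levels of 1.27 and 1.66 in the donor cells against -4.05 to -3.39 (median -3.88) in the NT embryos, and a difference of -5.26 ± 0.23 (adjusted p = 4.34e-24), seen on both of its probes at -4.55 and -5.97. Neither gene overlapped between the groups, which was a condition for the 15 largest falls. Of 11 measured genes for collagens and their processing, 3 fell (27.3% against 15.4% of all genes) and 0 rose, with a median difference of -0.33. The third was LOXL1, a cross-linking oxidase, at -1.35 ± 0.28. COL1A1 was not analysed here.

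Among 23 matrix glycoproteins and proteoglycans of fibroblasts, a list that also holds vimentin, 11 fell (47.8%) and 2 rose (8.7%), with a median of -0.41. Vimentin, VIM, the intermediate filament of mesenchymal cells, stood at -0.11 and 0.064 in donor cell specimens 8 and 9 and ran from -5.05 to -4.13 in the NT embryos, with a median of -4.52. That is a difference of -4.48 ± 0.18 (adjusted p = 2.53e-25), with -4.56 and -4.41 on its probes. The elastic fibre protein FBLN5 differed by -4.90 ± 0.37, osteopontin, SPP1, by -3.33 ± 0.31, and the collagen-binding glycoprotein SPARC by -3.77 ± 0.41 over the 14 NT embryos with a value. All of these lay below both donor cell specimens in every NT embryo measured.

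Other fibroblast genes were not lower. Fibronectin, FN1, had levels of 0.27 and 0.51 in the donor cells against -0.54 to 0.95 (median 0.31) in the NT embryos and did not pass, with a difference of -0.20 ± 0.30 (adjusted p = 0.676). The fibulin FBLN2, chosen after its value was seen, was higher in NT embryos by 1.86 ± 0.25 (adjusted p = 4.04e-08). THY1 was at 0.42 and 0.34 in the donor cells against 0.65 to 1.30 (median 0.95) in the NT embryos, and its rise of 0.58 ± 0.20 (adjusted p = 0.0182) was lost without specimen 8 (adjusted p = 0.104) and without specimen 9 (adjusted p = 0.162). Array medians left as deposited ended the call too, as did either dye orientation by itself.

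Proteases that cut the matrix fell beside it. Cathepsin K, CTSK, a lysosomal enzyme that digests collagen, had a level of 3.48 and 3.55 in donor cell specimens 8 and 9 and ran from -3.71 to -0.99 in the NT embryos, with a median of -3.53. It differed by -6.75 ± 0.43 (adjusted p = 4.52e-18), and 1 embryo, labelled 3_3, stood apart at the upper end without reaching the donor cells. The gelatinase MMP2 was at 1.31 and 1.37 in the donor cells against -4.24 to -2.67 (median -3.05) in the NT embryos, a difference of -4.46 ± 0.28 (adjusted p = 2.85e-18). TIMP3, an inhibitor of such enzymes, differed by -2.56 ± 0.26, but its probes gave -5.30 and 0.17. Of 15 proteases and inhibitors, 8 fell (53.3%) and CTSZ rose. Their median difference was -0.66, and as deposited 5 fell. The rise of CTSZ (1.09 ± 0.36, chosen after its value was seen) was lost without specimen 8 (adjusted p = 0.0734) or 9 (adjusted p = 0.157).

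Coat genes of caveolae, the small membrane pits of mesenchymal and endothelial cells, were lower in NT embryos. CAV1, the main coat protein, stood at 1.66 and 1.51 in donor cell specimens 8 and 9 and ran from -5.54 to -4.75 in the NT embryos, with a median of -5.03, a difference of -6.64 ± 0.49 (adjusted p = 7.87e-16). The partner CAVIN1 was at -0.21 and -0.79 in the donor cells against -2.85 to -1.96 (median -2.24) in the NT embryos, a difference of -1.79 ± 0.21 (adjusted p = 1.30e-09). With integrins, annexins and other adhesion receptors, 11 of 19 genes fell (57.9%) and 2 rose; the median difference was -1.31. The hyaluronan receptor CD44 differed by -2.65 ± 0.28 with probes at -0.50 and -4.80, ANXA5 by -3.68 ± 0.28 and S100A11 by -2.63 ± 0.30. The annexin ANXA2 (0.97 ± 0.22) and the tetraspanin CD9 (0.91 ± 0.26), named because they were the exceptions, rose. With the specimen in Cy5 alone CD9 was not called (0.47, adjusted p = 0.211). The call of CD9 was lost without specimen 8 (adjusted p = 0.112).

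Genes of the actin skeleton went both ways: 8 of 25 genes fell (32%), 6 rose (24%) and the median was 0.12, against 3 fallen and 6 risen as deposited. Over all genes 15.4% fell and 19.9% rose, so that the share that rose was near that of all genes. FHL1, a LIM protein of stress fibres, was at 0.088 and 0.42 in the donor cells against -4.69 to -3.44 (median -4.30) in the NT embryos, a difference of -4.53 ± 0.20 (adjusted p = 1.88e-23). The actin-bundling plastin PLS3 was at 2.45 and 2.74 in the donor cells against -3.48 to -1.02 (median -2.69) in the NT embryos (-5.21 ± 0.40), and tropomyosin TPM1 differed by -3.57 ± 0.41. In the other direction TAGLN2 differed by 2.02 ± 0.25 and PDLIM7 by 1.62 ± 0.24. None of these 5 overlapped between the groups, which was a condition of choice for PLS3.

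Genes of growth signalling and transcription were also among the largest falls. The growth factor PDGFC had a level of 1.61 and 1.84 in donor cell specimens 8 and 9 and ran from -4.33 to -1.02 in the NT embryos, with a median of -3.72, and a difference of -5.27 ± 0.44 (adjusted p = 8.49e-14). TCIM, a regulator of Wnt signalling, was at 3.14 and 2.90 in the donor cells against -4.93 to -0.89 (median -4.18) in the NT embryos (-6.62 ± 0.59). In TCIM most embryos lay near the median but 3 lay above -2, and in PDGFC the embryo labelled 3_3 was again the highest. The immediate early gene EGR1, which responds to serum, was at 2.31 and 2.08 in the donor cells against -4.54 to -1.58 (median -2.65) in the NT embryos (-5.02 ± 0.69), and FOS was at 2.52 and 2.63 in the donor cells against -2.67 to -1.29 (median -1.88) in the NT embryos (-4.51 ± 0.62). Of 24 immediate early genes, 6 fell (25%) and 2 rose, which became 4 and 1 without specimen 8, 3 and 1 without specimen 9, and 2 and 1 as deposited. JUN, JUNB and 14 others did not pass.

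Other large falls had no single theme. The malic enzyme ME1 differed by -5.11 ± 0.47, the membrane skeleton spectrin SPTBN1 by -5.07 ± 0.42, the splicing regulator MBNL1 by -4.80 ± 0.44 and the homeobox gene MEIS2 by -3.12 ± 0.45. RPS9, a ribosomal protein read by 1 probe, was at 1.56 and 1.78 in the donor cells against -3.59 to -2.55 (median -3.18) in the NT embryos (-4.82 ± 0.31). The receptor TGFBR2 differed by -1.88 ± 0.25 over 2 probes with opposite calls (-4.75 and 0.99), so that its direction is uncertain. Of 14 genes of the TGF-beta and BMP pathway 3 fell (21.4%, against 15.4% of all genes) and 0 rose, and 1 fell as deposited.

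**Figure D2:**
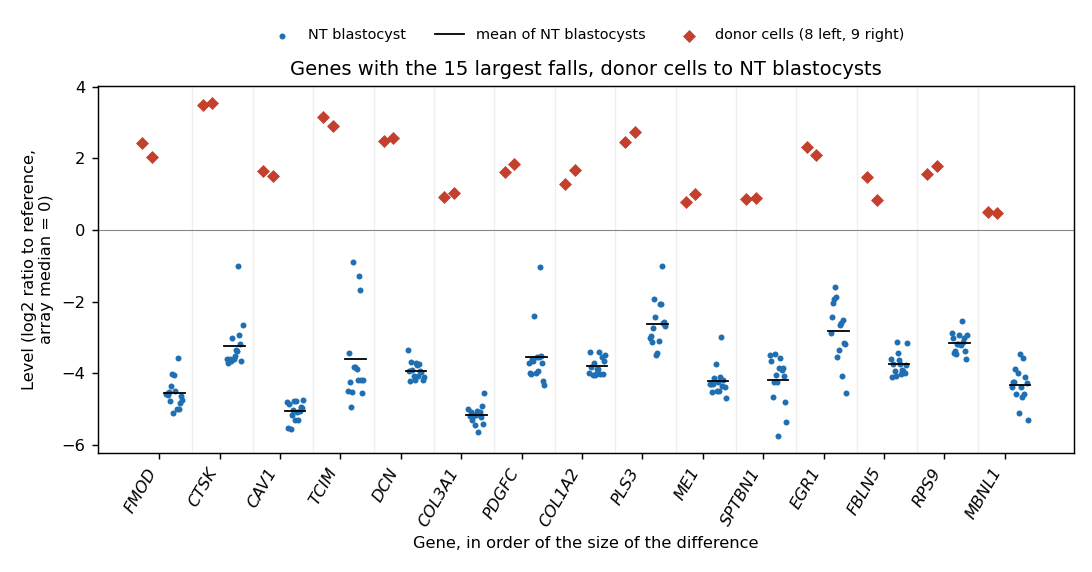
Levels (y axis, log2 ratio to reference) of the 15 genes with the largest falls (x axis), with red diamonds for donor cell specimens 8 (left) and 9 (right), blue points for 15 NT blastocysts and a bar at their mean; the sideways position of the points has no meaning. The genes were chosen among those without overlap. In all 15 genes the donor cells lie above 0 and every NT embryo below 0, and CTSK, TCIM and PDGFC have single embryos well above the others.

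Several of the largest rises in the NT embryos were in genes of a sealed epithelium. Occludin, OCLN, a membrane protein of tight junctions, had a level of -2.10 and -2.35 in donor cell specimens 8 and 9 and ran from 3.07 to 3.93 in the NT embryos, with a median of 3.53. Its difference of 5.73 ± 0.22 (adjusted p = 9.26e-26) was the largest rise, 53-fold. ESRP1, a splicing regulator of epithelial cells, was at -2.84 and -1.68 in the donor cells against 2.66 to 3.42 (median 3.01) in the NT embryos, and differed by 5.28 ± 0.25 (adjusted p = 1.64e-22). The adhesion molecule EPCAM was at -1.76 and -1.89 in the donor cells against 1.79 to 3.02 (median 2.49) in the NT embryos (4.32 ± 0.27) and the claudin CLDN6 at 0.41 and 0.39 in the donor cells against 3.75 to 4.62 (median 4.17) in the NT embryos (3.79 ± 0.21). None of these 4 overlapped, which was a condition of choice for OCLN and ESRP1.

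Of 29 measured genes on a list of epithelial junctions and polarity, 18 rose (62.1% against 19.9% of all genes) and 0 fell, with a median of 1.24. The list also holds other epithelial genes, and ESRP1, ST14, SPINT1, SPINT2, RAB11A and RAB25 are among the 18. The numbers that rose were 15 without specimen 8 and 17 without specimen 9, and 18 as deposited. The adhesion molecule F11R differed by 2.62 ± 0.19 with probes at 4.87 and 0.36. E-cadherin, CDH1, which holds epithelial cells together, was at 1.30 and 1.56 in the donor cells against 1.70 to 3.14 (median 2.17) in the NT embryos. Its levels did not overlap, yet the difference of 0.86 ± 0.36 missed the threshold (adjusted p = 0.0594), and passed in 6 alternatives, among them the values as deposited (adjusted p = 0.0414). CDH1 was named after its value was seen.

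The keratins of simple epithelia were among the largest rises. KRT8 had a level of -3.44 and -4.14 in donor cell specimens 8 and 9 and ran from 0.64 to 2.19 in the NT embryos, with a median of 1.68, a difference of 5.42 ± 0.30 (adjusted p = 1.87e-20). Its partner KRT18 was at -3.09 and -2.90 in the donor cells against 0.91 to 2.57 (median 2.36) in the NT embryos, a difference of 5.16 ± 0.33 (adjusted p = 5.48e-18), where 2 of 3 probes carried the rise (1.04, 7.26 and 7.18). KRT19 was at -0.65 and -0.47 in the donor cells against 1.09 to 2.62 (median 1.99) in the NT embryos (2.50 ± 0.31). Of 6 keratins and their partners, 5 rose (83.3%) and 1 fell (16.7%). The embryo labelled 2_8 was the lowest of the 15 for KRT8 and KRT18, and still above the donor cells. KRT15 (0.67 ± 0.18) and the desmosomal cadherin DSC2 (2.90 ± 0.61) rose too, but KRT15 was lost without specimen 9 (adjusted p = 0.055) and DSC2 without specimen 8 (adjusted p = 0.0765). KRT15 was also lost with the specimen in Cy5 alone (0.28, adjusted p = 0.357). Periplakin, PPL, which links keratins to the membrane, was lower in NT embryos, with levels of -0.84 and -0.83 in the donor cells against -3.40 to -2.04 (median -2.58) in the NT embryos, a difference of -1.78 ± 0.25 (adjusted p = 1.48e-07).

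Transport genes of the blastocoel rose in part, with 4 of 9 higher (44.4%, against 19.9% of all genes) and 1 lower (11.1%, against 15.4%). The water and glycerol channel AQP3 had a level of -0.87 and -0.73 in donor cell specimens 8 and 9 and ran from 3.72 to 4.68 in the NT embryos, with a median of 4.29, a difference of 5.07 ± 0.26 (adjusted p = 1.60e-21), and its probes gave 4.66, 5.16 and 5.38. The sodium pump subunit ATP1B3 was at -0.19 and -0.48 in the donor cells against 1.90 to 2.88 (median 2.25) in the NT embryos (2.57 ± 0.25), and the epithelial sodium channel subunit SCNN1A differed by 1.60 ± 0.31. AQP11 differed by 1.08 ± 0.28 and was lost without specimen 8 (adjusted p = 0.241). Carbonic anhydrase 2, CA2, was the exception at -0.043 and -0.59 in the donor cells against -4.35 to -3.15 (median -3.59) in the NT embryos (-3.31 ± 0.30).

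Prostaglandin synthesis was represented by PTGS2, the inducible cyclooxygenase, whose level was -0.97 and 0.33 in donor cell specimens 8 and 9 and ran from 4.13 to 5.45 in the NT embryos, with a median of 5.11. Its difference was 5.37 ± 0.27 (adjusted p = 6.30e-22), and the donor cell specimens were 1.31 apart. The steroid dehydrogenase HSD3B1 was at -4.26 and -5.04 in the donor cells against -4.30 to -0.70 (median -1.54) in the NT embryos (2.79 ± 0.65), with overlap, since embryo 2_8 reached the donor cells. HSD17B10 differed by 2.40 ± 0.42 and the prostaglandin F synthase AKR1B1 by 1.83 ± 0.41. Of 13 genes of steroid and prostaglandin synthesis 5 rose (38.5%, against 19.9% of all genes) and 2 fell (15.4%, the same share as of all genes).

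Secreted proteins of the ruminant trophoblast were higher in few cases, 3 of 13 (23.1%, near the 19.9% of all genes), and 0 were lower. The pregnancy-associated glycoproteins PAG12 and PAG11 were at -0.46 and -0.64 in the donor cells against -0.56 to 3.12 (median 1.92) in the NT embryos, and at -0.26 and 0.28 in the donor cells against 0.18 to 2.51 (median 1.49) in the NT embryos. They differed by 2.36 ± 0.65 (adjusted p = 0.0034) and 1.37 ± 0.40 (adjusted p = 0.00549), and both overlapped the donor cells. PAG12 was lost without specimen 9 (adjusted p = 0.0635), PAG11 without specimen 8 (adjusted p = 0.154) and SSLP1 (2.14 ± 0.73) without specimen 8 and without specimen 9 (adjusted p = 0.154 and 0.108). SSLP1 was also lost with the specimen in Cy3 alone (1.72, adjusted p = 0.0693). Embryos spread widely, with SSLP1 from -0.32 to 3.34. PAG8, TKDP1 and TKDP4 were among the 10 that did not pass.

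Transcription factors of the trophectoderm did not move as one. Of 18 measured, 4 rose (22.2%, near the 19.9% of all genes) and 1 fell. TFAP2C was at 0.98 and 0.92 in the donor cells against 2.15 to 3.39 (median 2.81) in the NT embryos (1.85 ± 0.31 (adjusted p = 4.89e-06)), and the Hippo pathway coactivator WWTR1 at -0.097 and -0.50 in the donor cells against 1.52 to 2.76 (median 1.92) in the NT embryos (2.26 ± 0.30 (adjusted p = 1.99e-08)). GATA2 differed by 1.13 ± 0.21, through 1 of its 4 probes (0.33, 3.88, 0.26 and -0.18). TFAP2A went the other way: its level was 2.20 and 1.54 in donor cell specimens 8 and 9 and ran from -2.17 to 0.56 in the NT embryos, with a median of -0.80, a difference of -2.71 ± 0.46 (adjusted p = 4.29e-06) on 1 probe, and every embryo lay below the donor cells. GATA3, named for its probes, had a mean difference of -0.49 ± 0.35 that joined opposite calls (-3.90 and 2.92), so that no direction can be given. Of 5 genes of the inner cell mass, KLF4 (-1.00 ± 0.37) and STAT3 (-1.17 ± 0.41) were lower in NT embryos. Both calls were lost without specimen 8 (adjusted p = 0.247 and 0.297), without specimen 9 (adjusted p = 0.105 and 0.0609) and as deposited.

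Several of the largest rises belong to none of these groups. The aminopeptidase ENPEP was at 0.015 and 0.0035 in the donor cells against 4.64 to 5.59 (median 5.03) in the NT embryos (5.01 ± 0.31), and RHPN2 at -3.42 and -5.07 in the donor cells against -0.43 to 1.51 (median 0.90) in the NT embryos (4.96 ± 0.44). The hexokinase domain gene HKDC1 was at -4.73 and -4.27 in the donor cells against -2.46 to 1.78 (median 0.92) in the NT embryos (4.96 ± 0.58), and ODC1, which starts polyamine synthesis, differed by 4.39 ± 0.25. PALB2, a partner of a DNA repair protein, differed by 4.82 ± 0.43, the mitotic motor KIF4A by 4.76 ± 0.40, TDRP by 4.77 ± 0.41, the glycosyltransferase GALNT3 by 4.71 ± 0.39 and the surface receptor CD48 by 4.60 ± 0.31. Embryos labelled 2_8 and 2_7 had the lowest HKDC1, at -2.46 and -1.80, which was still above both donor cell specimens.

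**Figure D3:**
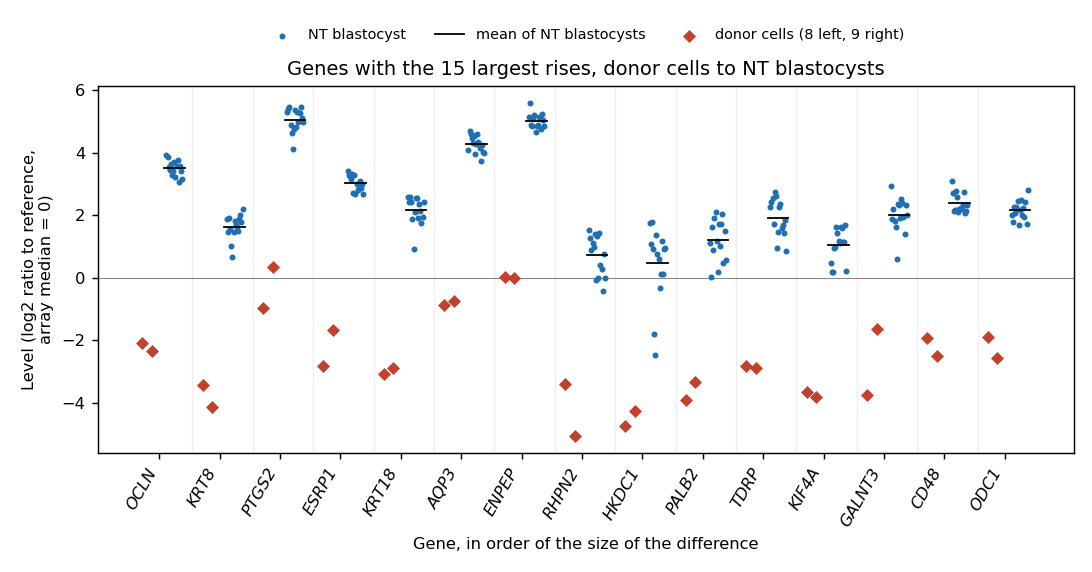
Levels (y axis, log2 ratio to reference) of the 15 genes with the largest rises (x axis), with red diamonds for donor cell specimens 8 (left) and 9 (right), blue points for 15 NT blastocysts and a bar at their mean; the sideways position of the points has no meaning. The genes were chosen among those without overlap between the groups, and HKDC1 shows the widest spread among embryos.

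Genes of cell division and DNA replication were higher in the embryos, with 18 of 32 risen (56.2%) and 4 fallen (12.5%), and a median of 0.80. With the specimen in Cy5 alone 12 rose and 6 fell (median 0.79), and in Cy3 alone 20 and 2 (median 1.21). Of the replicative helicase, MCM4 was at -4.15 and -4.13 in the donor cells against -1.46 to -0.25 (median -0.55) in the NT embryos (3.46 ± 0.28 (adjusted p = 1.75e-14)) and MCM7 at -1.60 and -2.46 in the donor cells against -0.39 to 0.91 (median 0.21) in the NT embryos (2.31 ± 0.26 (adjusted p = 5.68e-10)). CDC20, which activates the anaphase-promoting complex, was at -2.61 and -2.36 in the donor cells against 0.84 to 2.48 (median 1.69) in the NT embryos (4.09 ± 0.32 (adjusted p = 4.61e-15)), and the spindle factor TPX2 differed by 3.09 ± 0.35. CDKN1A, an inhibitor of cyclin-dependent kinases, was lower in NT embryos, with levels of 0.44 and 1.04 in the donor cells against -1.81 to -0.66 (median -1.26) in the NT embryos (-2.00 ± 0.26 (adjusted p = 2.42e-08)). None of these 5 overlapped.

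Of 47 subunits of oxidative phosphorylation, 29 rose (61.7%) and 1 fell, with a median of 0.96. Without specimens 8 and 9 in turn 19 and 22 rose, and with the specimen in Cy5 alone 15, with a median of 0.53. Over all genes 581 rose in Cy5 alone, in place of 877. The median of the list was 0.87 without specimen 8 and 0.84 without specimen 9. COX7A2, of cytochrome c oxidase, was at -1.75 and -1.87 in the donor cells against 0.16 to 1.33 (median 0.98) in the NT embryos (2.72 ± 0.22 (adjusted p = 2.12e-14)). UQCRC2, of complex III, differed by 1.48 ± 0.21, ATP5PB, of the ATP synthase, by 1.57 ± 0.25 and NDUFV1, of complex I, by 1.59 ± 0.30. Of 49 genes of the mitochondrial ribosome and import 23 rose (46.9%) and 2 fell, and 15 rose without specimen 9 and 11 with Cy5 alone. The import channel TIMM23 was at 0.69 and 0.12 in the donor cells against 3.61 to 4.14 (median 3.97) in the NT embryos (3.52 ± 0.19 (adjusted p = 9.63e-21)), and MRPL48 differed by 3.85 ± 0.36.

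Glucose carriers were higher in the embryos. SLC2A1 was at -2.45 and -2.66 in the donor cells against 0.075 to 1.70 (median 1.00) in the NT embryos (3.63 ± 0.35 (adjusted p = 4.47e-12)) and SLC2A3 at -1.08 and -1.20 in the donor cells against 0.76 to 2.66 (median 1.98) in the NT embryos (3.03 ± 0.29 (adjusted p = 2.93e-12)), and for both every embryo lay above the donor cells. Of 22 genes of glucose transport and glycolysis 11 rose (50%) and 3 fell, which became 7 and 1 without specimen 8, 6 and 1 without specimen 9, and 5 and 4 with Cy5 alone. The pyruvate dehydrogenase subunit PDHB differed by 2.36 ± 0.22. PDK4, which inhibits that enzyme, was called lower (-1.55 ± 0.33), but its levels were 1.55 and -1.56 in the donor cells against -2.26 to -1.10 (median -1.46) in the NT embryos. The donor cell specimens lay 3.11 apart for PDK4, and without specimen 8 the difference was 0.0008 (adjusted p = 0.999).

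RNA processing genes were higher too: of 59, 29 rose (49.2%) and 2 fell, with a median of 0.75, and 18 and 23 rose without specimens 8 and 9. The snoRNP protein GAR1 was at 0.12 and -0.56 in the donor cells against 1.86 to 2.93 (median 2.58) in the NT embryos (2.79 ± 0.43 (adjusted p = 7.15e-07)), and the splicing factor SRSF7 at -1.99 and -1.54 in the donor cells against 0.16 to 1.18 (median 0.94) in the NT embryos (2.55 ± 0.26 (adjusted p = 3.28e-11)). RBM3, an RNA-binding protein induced by cold, was lower in NT embryos, with levels of 0.026 and 0.40 in the donor cells against -3.04 to -1.69 (median -2.57) in the NT embryos (-2.75 ± 0.36 (adjusted p = 2.24e-08)). Groups did not overlap in these 3.

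The number of ribosomal protein genes called depended on scaling and dye. Of 45, 20 fell (44.4%) and 2 rose, and the median difference was -0.47. As deposited 5 fell, with Cy3 alone 4, with Cy5 alone 31, 12 without specimen 8 and 9 without specimen 9. RPL35 was at -0.86 and -0.49 in the donor cells against -2.80 to -2.14 (median -2.49) in the NT embryos (-1.79 ± 0.14 (adjusted p = 1.40e-14)) and RPL32 differed by -1.18 ± 0.24, both without overlap, while RPL7L1 rose by 1.79 ± 0.23.

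Lysosomal genes went both ways, and the share that rose was near the 19.9% of all genes. Of 48, 15 fell (31.2%) and 11 rose (22.9%), against 12 and 4 without specimen 8, and 10 and 7 without specimen 9. As deposited 8 fell and 9 rose. The membrane protein SCARB2 was at 0.099 and -0.051 in the donor cells against -4.02 to -2.02 (median -3.18) in the NT embryos (-3.02 ± 0.38 (adjusted p = 9.43e-09)) and the protease LGMN differed by -2.35 ± 0.29. The proton pump subunit ATP6V1A rose by 2.14 ± 0.26. The protease CTSV rose by 2.53 ± 0.33.

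Antigen presentation was lower in 7 of 19 genes (36.8%) and higher in 2, and 5 and 3 were lower without specimens 8 and 9. The class I gene listed as BOLA was at 1.23 and 1.45 in the donor cells against -1.51 to 1.12 (median -0.37) in the NT embryos (-1.84 ± 0.38 (adjusted p = 1.17e-04)), and TAPBP, which loads peptides on class I molecules, at 0.51 and 0.25 in the donor cells against -2.37 to -1.43 (median -1.83) in the NT embryos (-2.22 ± 0.35 (adjusted p = 1.32e-06)). IRF9 differed by -1.74 ± 0.26. Class I genes are near-identical copies, and a cDNA probe may read several of them.

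Antioxidant genes moved both ways, with 10 of 35 higher (28.6%) and 8 lower (22.9%), against 9 and 4 as deposited, and 7 and 5 without specimen 8. Catalase, CAT, was at 1.70 and 2.00 in the donor cells against -1.37 to 0.34 (median -0.71) in the NT embryos (-2.58 ± 0.32 (adjusted p = 3.60e-09)), and the peroxidase GPX8 at -0.78 and -0.15 in the donor cells against -3.63 to -2.94 (median -3.17) in the NT embryos (-2.78 ± 0.22 (adjusted p = 5.73e-15)). Glutathione reductase, GSR, was higher in NT embryos, with levels of -1.39 and -1.63 in the donor cells against -0.78 to 2.39 (median 1.95) in the NT embryos (3.08 ± 0.43 (adjusted p = 8.52e-08)), and PRDX2 differed by 1.39 ± 0.22. The groups did not overlap for any of these 4.

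Chromatin modifiers write and read the marks that reprogramming has to replace. Of 41 genes measured, 12 rose (29.3%) and 1 fell, with a median of 0.31, and 8 and 7 rose without specimens 8 and 9. The histone deacetylase HDAC1 had a level of -0.74 and -1.34 in donor cell specimens 8 and 9 and ran from 1.36 to 1.73 in the NT embryos, with a median of 1.54, a difference of 2.58 ± 0.18 (adjusted p = 1.01e-16), the narrowest spread among the genes of this list named here. The de novo DNA methyltransferase DNMT3A was at 0.69 and 0.20 in donor cell specimens 8 and 9 and ran from 1.61 to 3.88 in the NT embryos, with a median of 2.38. Its difference of 2.06 ± 0.46 (adjusted p = 3.07e-04) was 3.11 with the specimen in Cy5 and 1.02 in Cy3, where it was not called (adjusted p = 0.228). The histone chaperone ASF1A differed by 1.73 ± 0.32, HMGB1 by 1.83 ± 0.33 and TRIM28, a corepressor that guards imprinted methylation, by 1.24 ± 0.29. DNMT1 was not analysed here.

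Among 10 histone genes 4 rose and 1 fell, and 2 rose without specimen 8 as without specimen 9. With all specimens 40% rose and 10% fell, against 19.9% and 15.4% of all genes. The list depended on dye. With the specimen in Cy5 alone 1 rose and 1 fell (median -0.034), and in Cy3 alone 5 rose and 1 fell (median 0.53). The variant H2AZ1 was at -1.18 and -1.59 in the donor cells against 0.084 to 0.65 (median 0.41) in the NT embryos (1.79 ± 0.19 (adjusted p = 1.14e-10)), with no overlap. H3-3A, a replacement variant, differed by 1.28 ± 0.31 and was lost without specimen 9, at 1.06. With the specimen in Cy5 alone H3-3A was not called either (0.82, adjusted p = 0.088).

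Genes listed as imprinted were lower in NT embryos in 8 of 18 cases (44.4%) and higher in 1, with a median of -0.68. Whether they were expressed from 1 parental copy in these specimens was not measured. The count of lower genes was 5 without specimen 8, 4 without specimen 9 and 4 as deposited. PLAGL1 had a level of 1.04 and 0.66 in donor cell specimens 8 and 9 and ran from -4.70 to -2.11 in the NT embryos, with a median of -3.87, a difference of -4.64 ± 0.42 (adjusted p = 7.65e-13). SGCE was at 0.055 and -1.36 in the donor cells against -4.79 to -3.95 (median -4.35) in the NT embryos (-3.69 ± 0.50 (adjusted p = 4.53e-08)) and COPG2 at 0.20 and 0.92 in the donor cells against -2.65 to -0.58 (median -1.51) in the NT embryos (-2.08 ± 0.37 (adjusted p = 1.16e-05)). DCN, described above with the matrix, is also on this list. NAP1L4 alone rose (1.78 ± 0.28). IGF2 was at -0.30 and -0.68 in the donor cells against -1.50 to -0.044 (median -1.14) in the NT embryos (-0.55 ± 0.30 (adjusted p = 0.153)) and H19 at 0.18 and 0.51 in the donor cells against 0.21 to 1.49 (median 0.63) in the NT embryos (0.35 ± 0.25 (adjusted p = 0.306)), and neither passed. XIST was not analysed here. The array does not tell parental copies apart.

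The split of the NT embryos by label found 0 genes different between the 8 embryos labelled 2_ and the 7 labelled 3_ (limma, smallest adjusted p = 0.319, with 347 genes at an unadjusted p below 0.05). Single embryos did stand out in single genes. Embryo 2_8 was the lowest of 15 in 5 of the 15 largest rises, KRT8, KRT18, PTGS2, HKDC1 and GALNT3. It was the lowest in 79 of the 870 risen genes with a value in every embryo (9.08%), where the 15 embryos ranged from 3.10% to 10.1%. Embryo 3_3 was the highest in 4 of the 15 largest falls, FMOD, CTSK, PDGFC and ME1. Over the 665 fallen genes it was the highest in 73 (11.0%), at the top of a range from 1.80% to 11.0%.

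NT embryos were also placed between fertilised embryos and donor cells. On an axis from the IVF mean (0%) to the donor cell mean (100%), over the 1508 genes called between those groups, NT embryos lay from -2.24% to 6.52% with a median of 3.99%. AI embryos on the same axis lay from -1.79% to 3.56%, median 1.08%. On an axis from the AI mean, over 1629 genes, NT embryos lay from 1.85% to 9.94% with a median of 5.84%, and IVF embryos from 7.56% to 15.9%, median 11.1%. The ranges of NT and fertilised embryos overlapped on both axes. With array medians left as deposited the NT medians were 7.00% and 9.23%, and with the specimen in Cy3 alone the second was 2.76%. Each embryo is placed on an axis drawn without its own group, both axes share the donor cells, and no test was made. IVF embryos, which were not made from donor cells, had the higher median on the AI axis. A position therefore does not measure how far NT embryos had moved or how much of a donor state remained.

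**Figure D4:**
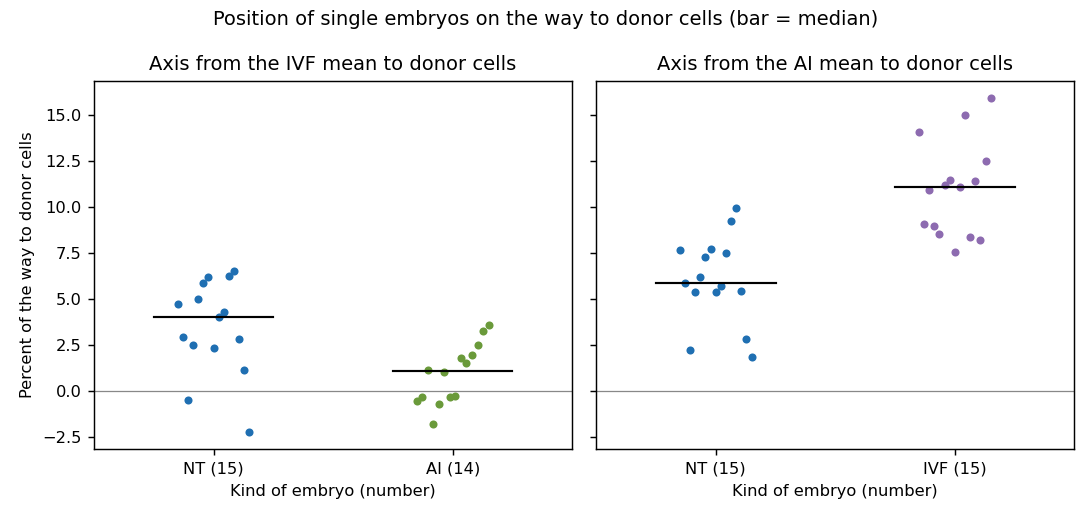
Position of single embryos, as percent of the way from the mean of a fertilised group to the donor cell mean (y axis), for NT embryos beside AI embryos on the IVF axis (left) and beside IVF embryos on the AI axis (right), with points for embryos and bars for medians. Every NT embryo lies below 10%, with medians of 3.99% on the left and 5.84% on the right. The median of AI embryos is 1.08% on the left, and that of IVF embryos 11.1% on the right.

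Genes were also classed without NT embryos, and then compared between NT embryos and the fertilised kind that had not entered the class. NT embryos differed from AI embryos in 350 genes (7.96%) and from IVF embryos in 1061 (24.1%). These counts rested on centring: with array medians as deposited they were 1997 (1978 higher in NT) and 1755 (1710 higher), and the medians over all genes were 0.44 against AI and 0.38 against IVF embryos. Of the 805 genes higher in IVF embryos than in donor cells, 24 were higher (2.98%) and 61 lower (7.58%) in NT than in AI embryos. Of the 703 genes higher in donor cells than in IVF embryos, NT embryos exceeded AI embryos in 38 (5.41%) and lay below them in 40 (5.69%). Of the 2890 genes not called between IVF embryos and donor cells, 94 were higher and 93 lower (3.25% and 3.22%). Against IVF embryos, 255 of the 903 genes higher in AI embryos than in donor cells were higher in NT (28.2%) and 88 lower (9.75%), compared with 300 (10.8%) and 248 (8.96%) of the 2769 genes not called. Of the 726 genes higher in donor cells than in AI embryos, NT embryos exceeded IVF embryos in 63 (8.68%) and lay below them in 107 (14.7%).

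Some of the 4398 genes tested were called against donor cells and against both fertilised kinds. Of these, 17 lay nearer to the donor cells in NT than in fertilised embryos and 29 lay further from them. Requiring the call against donor cells favours genes whose NT level is far from them, so that the counts cannot be weighed against each other. These counts describe comparisons that share the NT embryos, and the genes below are examples, not a balance of the directions. Some named genes kept a level between donor cells and fertilised embryos. The difference NT minus AI is also the difference between the 2 effects against donor cells, since the donor cells cancel, and all of these values share the NT embryos. SPARC had a mean of -1.02 in NT, -1.75 in AI and -1.58 in IVF embryos. It was 0.73 ± 0.20 (adjusted p = 0.0184) above AI and 0.56 ± 0.20 (adjusted p = 0.0358) above IVF embryos, so that it fell less far in NT embryos. GPX8 had means of -3.25, -3.80 and -3.60 in the same order and THBS1, a matrix glycoprotein named after its value was seen, -0.51, -0.87 and -0.97. Among risen genes OCLN had means of 3.50, 3.85 and 3.80, and TIMM23 3.93, 4.28 and 4.29. The folate receptor FOLR1 (3.58, 4.58 and 4.20), the junction protein MPZL2 (3.06, 3.75 and 3.74) and the RNA-binding protein RBM47 (1.46, 2.00 and 2.05) were named after their values were seen. With centred arrays all of these rose less far in NT embryos than in either fertilised kind. With array medians as deposited the sign turned for OCLN (0.071 above AI, 0.077 above IVF) and TIMM23 (0.063 and 0.010), and MPZL2 and RBM47 lost their calls against both kinds and FOLR1 against IVF embryos. SPARC, GPX8 and THBS1 kept theirs there. As deposited the median over all genes was 0.44 against AI and 0.38 against IVF embryos. That shift raises differences above fertilised embryos and shrinks those below, so that these kept calls do not show robustness. With the specimen in Cy3 alone THBS1 was 0.037 above AI embryos (adjusted p = 0.931) and SPARC was lost against IVF embryos (adjusted p = 0.116). Of 6 alternatives of scaling, dye and NT label, SPARC, THBS1 and MPZL2 kept both calls in 4, GPX8 and RBM47 in 3, FOLR1 and TIMM23 in 2 and OCLN in 0. The values as deposited, with their shift, are among the 6.

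Other genes went further from the donor cells in NT than in fertilised embryos. TFAP2A had means of -0.84 in NT, 0.58 in AI and -0.093 in IVF embryos, and was lower in NT by -1.42 ± 0.23 (adjusted p = 3.09e-05) and -0.75 ± 0.22 (adjusted p = 0.0103). IFI30, a lysosomal thiol reductase, had means of -0.81, 0.70 and 1.21. Its fall against donor cells (-2.57 ± 0.61) was lost without specimen 9 (adjusted p = 0.0699). PPL had means of -2.62, -2.23 and -1.72, and RPL35 -2.46, -2.15 and -2.25. As deposited IFI30 kept its call against both, TFAP2A against AI embryos only (adjusted p = 0.170 against IVF), and the sign turned for RPL35 against both and for PPL against AI embryos. Of the same 6 alternatives IFI30 kept both calls in 6, TFAP2A in 3, PPL in 1 and RPL35 in 0. By contrast COL1A2 (-3.79, -3.78 and -3.73), COL3A1 (-5.16, -5.16 and -5.18), VIM (-4.51, -4.51 and -4.45) and KRT8 (1.62, 1.98 and 1.62) did not pass against either. The standard error of NT minus AI was 0.11 for COL1A2 and 0.12 for COL3A1.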

How the data were processed

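Each deposited array column holds log2 ratios between its dyes, with 1 array per dye orientation. The authors' background correction and normalization are not given in the sources used here, and only the dyes and the amplification come from the labels. Values above 16, which recur as a fill value, were set to missing. Ratios with the specimen in Cy3 were turned in sign, each array was centred on its median, adjacent duplicate spots were averaged, and both arrays of a specimen were averaged. Probes needed a value in both donor cell specimens and in at least 50% of the AI, IVF and NT embryos alike, which left 7992 of 8208 probes. Of all probes, 5598 had 1 gene symbol, 95 several and 2515 none. Those with 1 symbol, 5591 of them matched by Entrez ID, were averaged to 4398 genes. All 46 specimens entered 1 limma fit (limma 3.58.1, R 4.3.3) with Benjamini-Hochberg adjustment over all genes and a threshold of 0.05; the procedure was tested on simulated data. The number of specimens, with 2 of donor cells, limits the precision.

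The members, gene lists and tests were chosen with earlier results of these data known. Named genes were the 15 largest rises and 15 largest falls without overlap, up to 5 members of smallest p and up to 3 of largest difference from each of 42 lists, and a prechosen set of markers and regulators. ANXA2, CD9, CDH1, CTSZ, FBLN2, FOLR1, GATA3, MPZL2, RBM47, TAGLN and THBS1 were named outside this rule, after their values were seen. Alternatives were array centring and scaling, each dye alone, the specimens in the fit, the filter on missing values, 1 probe per gene, and leaving out specimens.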

Additional observations from a re-analysis of the deposited data

Results flagged for a closer look

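For 13 of the 134 genes named above the effect against donor cells differed between NT embryos and both fertilised kinds, by the test of NT against AI and against IVF embryos (limma, adjusted p below 0.05 in both). Of all 4398 genes, 17 and 29 were called so and also against donor cells, nearer to and further from them. FOLR1, MPZL2, RBM47 and THBS1 were named after their values were seen, so that the 13 are no share of an unselected set. Some further genes differed from 1 kind only. SPARC was above AI embryos by 0.73 and above IVF embryos by 0.56, GPX8 by 0.55 and 0.35, and THBS1 by 0.36 and 0.46. TFAP2A differed from AI embryos by -1.42 and from IVF embryos by -0.75, and IFI30 by -1.51 and -2.02. FOLR1 differed by -1.00 and -0.61, MPZL2 by -0.69 and -0.67, and RBM47 by -0.54 and -0.59. OCLN differed by -0.35 and -0.30, TIMM23 by -0.36 and -0.37, PPL by -0.38 and -0.90, RPL35 by -0.32 and -0.21, and KDR by -0.37 and -0.36. With array medians as deposited 6 of the 13 kept their call against AI embryos and 5 against IVF embryos, and 5 and 4 turned in sign. There the median over all genes was 0.44 and 0.38, a shift that favours genes above fertilised embryos and disfavours those below. With the specimen in Cy3 alone 4 and 8 kept it, with Cy5 alone 10 and 8, with quantile normalisation 11 and 11, with the embryos labelled 2_ 8 and 6 and with those labelled 3_ 8 and 9. Only IFI30 kept both calls in all 6 of these alternatives.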

How the results depend on the processing

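Of the 134 genes named, 129 were called, and 6 of these lost their call with array medians as deposited, 6 with the specimen in Cy5 alone, 7 with the specimen in Cy3 alone, 11 without donor cell specimen 8, besides PDK4, and 10 without specimen 9. Leaving out 1 donor cell specimen gave 1018 to 1022 genes in place of 1556 and 1605 to 1609 probes in place of 2507. In these fits the lone donor cell specimen is assumed to vary like the other groups. The main fit, with its pooled spread, makes the same assumption for both donor cell specimens. Genes called in both dye orientations numbered 852. PDK4 turned in sign without specimen 8, to 0.0008, and was -3.11 without specimen 9. With 1 probe per gene KDR turned to 0.17 and PECAM1 to -0.28. NT against AI embryos, 350 genes, gave 1997 as deposited, 572 with Cy5 alone, 217 with Cy3 alone, 166 with the NT embryos labelled 2_ and 173 with those labelled 3_, each a subset of the embryos. NT against IVF embryos, 1061 genes, gave 1755 as deposited and 701 with the embryos labelled 3_. The NT median on the IVF axis moved from 3.99% to 7.00% as deposited, and on the AI axis from 5.84% to 9.23% as deposited and to 2.76% with Cy3 alone. The cause was not tested. The other alternatives kept the counts within 1.5 times. No paired analysis was possible because the labels do not say which donor cells gave rise to which embryo.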
